A study of Mus musculus with 8 samples.

Results

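The clustered histone genes encode the linker histone H1 and the core histones H2A, H2B, H3 and H4, around which DNA is wound. They were taken here as every array probe for a mouse transcript whose gene name in the files begins with Hist1h, Hist2h, Hist3h or Hist4h. This gave 49 genes of 34797 gene names on the array, represented by 55 probes of 55681, each printed as 1 spot. Of the genes, 6 encode H1, 14 H2A, 12 H2B, 8 H3 and 9 H4. The Hist1 cluster on chromosome 13 held 36 of them, Hist2 on chromosome 3 held 9, Hist3 on chromosome 11 held 3, and Hist4 on chromosome 6 held 1.

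RNA came from the thyroids of 8-week-old female Balb/c mice, 4 controls (Ct1 to Ct4) and 4 exposed animals (S539, S588, S589 and S590). Exposed animals had received 99mTcO4-, a radioactive ion that thyroid cells take up as they do iodide, at an absorbed dose of 30 Gy to the thyroid, and RNA was taken 24 hours later. Controls received no radioactivity. They are called untreated in the study's text, and saline is named for them in a legend. Each thyroid was hybridised to 1 single-colour Agilent array, and whole-gland RNA was used, so a lower signal from fewer cells of a type and from less RNA per cell cannot be told apart.

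Most clustered histone genes are replication-dependent. They lack introns, are transcribed as cells enter S phase, and deliver histones for newly copied DNA. Their mRNAs are the known exception to polyadenylation: they end in a short stem-loop that stem-loop binding protein (Slbp) recognises, and are degraded when replication stops. Some of these genes also produce longer, polyadenylated transcripts in cells that no longer divide. The labelling kit named for these arrays belongs to a family that primes cDNA from poly(A) tails, so how well a stem-loop mRNA was copied is not known from these files.

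The stem-loop could be read directly in the probes. The search used 6 bases, a loop of 4 bases and the reverse complement of the 6 (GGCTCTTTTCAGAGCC, given strand only). It was found whole in 4 member probes, which were the only matches among the 55681 probes (0.00718%). A further 2 members carried a variant with 14 of 16 bases and a fully paired stem. The sequences below are windows of 30 bases from these probes, shown because they place the probe across the processed end of the mRNA. Capitals mark the stem-loop. It begins at base 7 of the probe of Hist2h2aa1, most of which lies past it, and at base 39 to 42 of the other probes.
Hist2h2aa1: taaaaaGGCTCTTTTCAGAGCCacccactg
Hist2h2bb: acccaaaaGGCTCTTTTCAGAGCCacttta
Hist1h3a: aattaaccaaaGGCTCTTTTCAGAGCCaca
Hist1h3i: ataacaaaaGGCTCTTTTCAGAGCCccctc
Hist1h3g: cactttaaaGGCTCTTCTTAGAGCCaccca
Hist1h4m: caactaaaGGCCCTTTTCAGGGCCatccaa

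In the mm9 positions of the array files, the probe of Hist2h2aa1 lies at chr3:96049949-96050008 on the plus strand and that of Hist2h2bb at chr3:96074056-96074115 on the plus strand. The probe of Hist1h3a lies at chr13:23853756-23853815 on the minus strand, and that of Hist1h3i at chr13:21874784-21874843 on the minus strand. The variants of Hist1h3g and Hist1h4m are in probes at chr13:23627719-23627778 and chr13:21903960-21904019, both on the plus strand.

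Other members share long stretches of coding sequence, so their probes may bind the transcripts of several genes. Over 17 pairs of member probes, at least 45 of 60 bases were identical in an ungapped alignment. The clearest case was the end of the H2A reading frame. The 4 probes printed here whole run to the stop codon, and each of the others differs from that of Hist1h2af at 5 of 60 bases. Capitals mark the bases that differ from the first line.
Hist1h2af: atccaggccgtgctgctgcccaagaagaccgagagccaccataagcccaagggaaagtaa
Hist1h2ak: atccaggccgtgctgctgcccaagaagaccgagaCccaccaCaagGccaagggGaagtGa
Hist1h2an: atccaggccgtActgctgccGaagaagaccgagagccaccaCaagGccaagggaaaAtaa
Hist2h2aa2: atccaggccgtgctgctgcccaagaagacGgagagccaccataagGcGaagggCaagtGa

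Positions of these probes in mm9 are chr13:23626113-23626172 (plus strand) for Hist1h2af, chr13:21845304-21845363 (minus) for Hist1h2ak, chr13:21878695-21878754 (minus) for Hist1h2an and chr3:96049837-96049896 (plus) for Hist2h2aa2. Values of these H2A genes are uncertain as values of single genes. The same holds for the other members of the pairs. These are Hist1h2ag and Hist1h2ah of H2A, Hist1h3c and Hist1h3f of H3 (45 of 60 bases), and Hist1h4c, Hist1h4d, Hist1h4j and Hist1h4k of H4. It also holds for Hist2h2ac, whose probe shared 45 of 60 bases with that of H2afj, a histone variant gene outside the clusters. The H2afj probe shared 44 bases with that of Hist1h2ah, and 38 to 40 with those of Hist2h2aa2, Hist1h2af and Hist1h2ak. The plus-strand position given for the probe of Hist2h2aa2 lies close to that of Hist2h2aa1. In RefSeq the promoter of Hist2h2aa2 is on the minus strand and that of Hist2h2aa1 on the plus strand. Values of Hist2h2aa1 are therefore uncertain as well, and which of these genes gave the signal of either probe was not tested.

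A single slide and scan held all arrays. The exposed thyroids filled its first positions, so position and exposure cannot be told apart. Between 60.5% and 77.3% of spots were well above background, and no spot was saturated. Thyrocyte markers (10 genes, among them thyroglobulin) had scores from -0.35 to 0.51, and all but Slc26a4 were well above background on every array. A score is the mean of the list's log2 signals, each centred on its gene's mean over the 8 arrays. In a check of the labels over 6 genes, Cdkn1a, a target of p53 that halts the cell cycle, was higher in exposed thyroids by 3.83 on the log2 scale, and Slc5a5, the iodide transporter, differed by -3.53, both past the threshold.

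Control replicates Ct1 and Ct2 stood apart from the other arrays in markers of thymocytes and T cells. The score of 10 thymocyte markers was 3.05 on Ct1 and 2.14 on Ct2, and lay between -1.16 and -0.11 on the other arrays. The score of 9 T cell markers was 3.50 and 2.32 on these arrays, against -1.30 to -0.07 on the rest. Rag1, which cuts the antigen receptor genes of immature lymphocytes, had log2 signals of 11.96 on Ct1, 10.64 on Ct2, 2.89 on Ct3, 2.92 on Ct4, 5.45 on S539, 2.80 on S588, 2.84 on S589 and 2.86 on S590, and was well above background on 2 control arrays and 1 exposed array. No gene of either list passed the threshold between exposed and control thyroids. Fibroblast markers (8 genes) had scores of 0.13 to 0.45 on the controls and -0.47 to 0.00 on the exposed arrays, and skeletal muscle markers (8 genes) varied from -0.22 to 1.18 and from -1.49 to 0.68; none of these genes passed. Lists of dividing cells were high on the same arrays. The score of 18 mitosis genes was 1.93 on Ct1 and 1.89 on Ct2 and from -1.07 to -0.17 elsewhere, and that of 34 S phase and replication genes was 0.80 and 0.82 against -0.42 to -0.06. Histone differences are therefore also given without these arrays, except for probes above background on no array or in 1 group only. What part cells of the thymus had in any histone value was not tested.

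**Figure D1:**
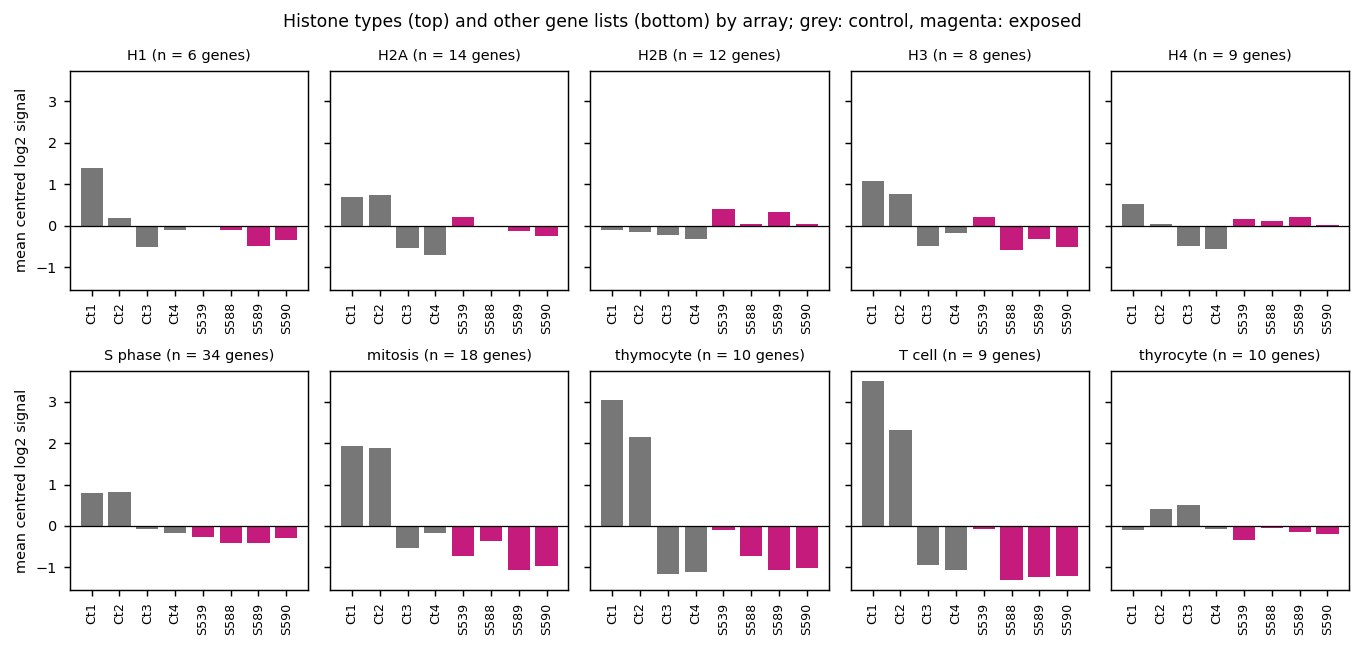
Mean centred log2 signal of each histone type (top row) and of 5 other gene lists (bottom row) on each array, with controls in grey and exposed thyroids in magenta. On Ct1 and Ct2 the scores of H1, H2A, H2B, H3 and H4 are above those of Ct3 and Ct4, narrowly so in H2B. The same holds for the S phase, mitosis, thymocyte and T cell scores. The H2B scores of all 4 controls lie below those of the exposed arrays.

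Across all 8 arrays, 1 of the 55 histone probes passed the threshold of 0.05 on the adjusted p of limma (1.82%), and it was higher in exposed thyroids. Over all probes, 435 passed (0.781%), of which 327 were higher (0.587%). The median difference of the members, exposed minus control, was 0.19 on the log2 scale, against 0.01 over all probes, and 33 of 55 were positive (60%), against 50.8% of all probes. At an unadjusted p under 0.05, 6 members were higher and 3 lower (10.9% and 5.45%), where all probes had 6.29% and 5.87%. In 4 members every exposed array exceeded every control (7.27%, against 4.74% of all probes), and in 3 every exposed array was below every control (5.45%, against 4.37%). These shares lay near those of the whole array. The lower counts include a probe of Hist4h4 and that of Hist2h2ab, above background on no array. The higher count at an unadjusted p includes that of Hist1h2bq, above background on 1 array. Of the 55 probes, 46 stood well above background throughout at least 1 group, 42 of them on all 8 arrays, and 3 on no array. Signals of different probes are not on a common scale and are not compared as amounts of RNA. They were ranked only to choose the probe that stands for a gene and the genes named.

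The probe past the threshold was that of Hist1h2be, a core histone H2B gene (H2bc6 in current RefSeq naming). Its log2 signal was 8.82, 8.77, 8.80 and 8.94 on Ct1 to Ct4, and 10.03, 9.79, 10.07 and 10.06 on S539, S588, S589 and S590. The groups were far apart, with each of the exposed arrays above each of the controls. The difference was 1.15 ± 0.13 (SE, n = 4 per group), a 2.23-fold higher signal, with an adjusted p of 0.0115 in limma and a two-sided exact permutation p of 0.0286, the smallest that 4 against 4 arrays can give. Unlike many other members, Hist1h2be had close values on Ct1 and Ct2 and on the other controls, and the difference was 1.11 without those arrays, with an adjusted p of 0.106. With the thymocyte score as a covariate it was 1.13, and the adjusted p was 0.0391. The call was also lost without Ct2, without S589 or without S590, with differences of 1.13, 1.13 and 1.13 and adjusted p of 0.0567, 0.0565 and 0.0577.

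The probe of Hist1h2be lies far from the beginning of its transcript. The file places it at base 2375, at chr13:23675610-23675669 on the minus strand in mm9, and names it as transcript variant 2. Of the 55 member probes, 7 begin past base 1000 of the transcript given for them, which is longer than a replication-dependent histone mRNA. The others are those of Hist1h1c, Hist1h1d, Hist1h2ac, Hist1h2bq, Hist2h2be and 1 of the probes of Hist4h4. None of these passed the threshold, and the differences of Hist1h1c, Hist1h1d, Hist1h2ac and Hist2h2be were 0.18, 0.54, 0.49 and 0.19. The probe of Hist1h2bq was above background on 1 array only, as described with the H2B genes, and that of Hist4h4 on no array. This grouping was made after the values had been seen.

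**Figure D2:**
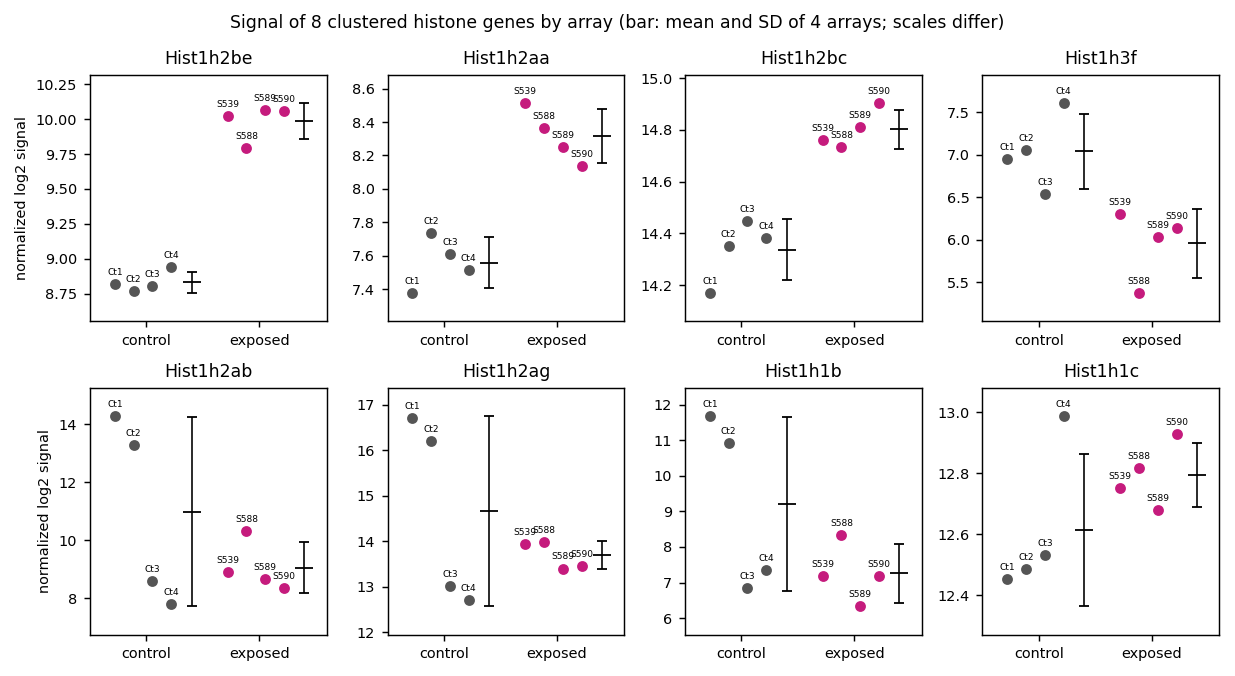
Normalized log2 signal of 8 clustered histone genes on each array, with the mean and SD of each group of 4 beside the points; the vertical scale differs between panels. Exposed and control arrays are apart in Hist1h2be, Hist1h2aa, Hist1h2bc and Hist1h3f, whereas in Hist1h2ab, Hist1h2ag and Hist1h1b the arrays Ct1 and Ct2 lie above all others.

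Among the H2B genes, which form a dimer with H2A in the nucleosome, 10 of 12 had positive differences, with a median of 0.27, and Hist1h2be alone passed. Closest to the threshold was Hist1h2bc, with 14.17, 14.35, 14.45 and 14.38 on the controls and 14.76, 14.73, 14.81 and 14.90 on the exposed arrays. Here too no values overlapped, and the difference was 0.46 ± 0.12 with an adjusted p of 0.188, and 0.39 without Ct1 and Ct2. Hist1h2ba, the H2B of testis, read between 11.70 and 12.29 on the controls and between 11.83 and 12.12 on the exposed arrays, a difference of 0.05 ± 0.17. Hist1h2bm read between 12.81 and 12.99 on the controls and between 12.82 and 13.27 on the exposed arrays, with a difference of 0.22 ± 0.14. These differences were 0.25 and 0.28 without Ct1 and Ct2.

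Other H2B probes varied more. Hist1h2bp had 5.56, 5.50, 6.83 and 5.75 on the controls and 6.59, 6.29, 6.79 and 6.14 on the exposed arrays, a difference of 0.54 ± 0.32 with the groups overlapping at Ct3, and 0.16 without Ct1 and Ct2. The probe of Hist1h2bq was well above background on none of the controls and on S589 only among the exposed arrays, so no fold is given (adjusted p = 0.307 in limma). The groups overlapped, with 3.68 on S588 and 3.88 on Ct4. The H2B gene with the largest negative difference was Hist2h2bb, a stem-loop probe, at -0.26 ± 0.77. Its values were 11.69, 10.58, 8.41 and 8.50 on the controls and 10.49, 9.27, 9.29 and 9.08 on the exposed arrays, so Ct1 was the highest and Ct3 and Ct4 the lowest, and the difference without Ct1 and Ct2 was 1.08. Hist3h2ba followed with -0.13 ± 0.24, and -0.024 without them. The other H2B genes, Hist1h2bb, Hist1h2bg, Hist2h2be and Hist3h2bb-ps, gave differences of 0.32, 0.32, 0.19 and 0.13. They were 0.78, -0.31, 0.040 and 0.27 without Ct1 and Ct2, so that Hist1h2bg turned negative. The probe of Hist1h2bb was well above background on 1 control and 3 exposed arrays.

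H2A genes had a median difference of 0.23 over 15 probes, 9 of them positive, and none passed. Nearest to passing was Hist1h2aa, the H2A expressed in testis. It read 7.38, 7.74, 7.61 and 7.51 on the controls and 8.51, 8.37, 8.25 and 8.14 on the exposed arrays. The exposed arrays were all higher, by 0.76 ± 0.15 with an adjusted p of 0.077, and the difference without Ct1 and Ct2 was the same to 2 decimals, 0.76. Its probe passed the threshold when normexp background correction, no background correction, the deposited values or a filter on dim probes was used.

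Most of the spread among H2A genes was between controls. Hist1h2ab read 14.28 on Ct1, 13.28 on Ct2, 8.60 on Ct3 and 7.79 on Ct4, and between 8.35 and 10.31 on the exposed arrays. Its difference of -1.93 ± 1.48 (adjusted p = 0.620) was 0.86 without Ct1 and Ct2. Hist1h2ag read 16.71, 16.20, 13.01 and 12.71 on the controls and 13.93, 13.99, 13.40 and 13.45 on the exposed arrays. On this gene the exposed arrays lay above Ct3 and Ct4 and below Ct1 and Ct2, and the difference turned from -0.97 ± 0.93 to 0.83 without the latter.

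Both probes of Hist1h2ak placed Ct1 and Ct2 highest among the controls. At the end of the reading frame the values were 16.78, 16.51, 15.15 and 15.02 on the controls and 16.50, 15.97, 16.04 and 16.06 on the exposed arrays, with a difference of 0.28 ± 0.43. At its first bases they were 13.01, 12.49, 9.79 and 9.86, and 10.68, 10.64, 10.12 and 10.21, with a difference of -0.88 ± 0.76. The signs differed between these probes and neither passed. Without Ct1 and Ct2 both were positive, at 1.06 and 0.58.

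The probes of Hist1h2af, Hist1h2ah, Hist2h2aa2 and Hist2h2ac, and the first of Hist1h2ak, gave differences of 0.17 to 0.51 and of 0.97 to 1.09 without Ct1 and Ct2. On Hist2h2aa2, with the largest of these differences over all arrays, the controls read 16.52, 16.43, 15.63 and 15.25 and the exposed arrays 16.79, 16.30, 16.42 and 16.36 (0.51 ± 0.31). H2A genes without this spread were Hist2h2aa1, whose probe lies mostly past the stem-loop, at 13.74 to 14.10 on the controls and 14.01 to 14.32 on the exposed arrays (0.23 ± 0.14), and Hist3h2a, at 11.82 to 12.16 and 11.88 to 12.43 (0.25 ± 0.17). These became 0.25 and 0.13 without Ct1 and Ct2. Hist1h2an gave -0.26 ± 0.72, which turned to 1.12 ± 0.20 without Ct1 and Ct2, and Hist1h2ac gave 0.49 ± 0.44 and 0.83. Hist1h2ae and Hist2h2ab were well above background on no array, so no fold is given for them.

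H4 forms a tetramer with H3 at the centre of the nucleosome. Over 14 H4 probes of 9 genes the median difference was 0.30, with 11 positive and none past the threshold. Hist1h4k had 15.10, 14.52, 14.12 and 13.57 on the controls and 14.78, 14.45, 14.72 and 14.55 on the exposed arrays (0.30 ± 0.31), and its second probe differed by 0.39 ± 0.28. Hist2h4 had 14.80, 14.16, 13.87 and 13.26 on the controls and 14.43, 14.02, 14.39 and 14.21 on the exposed arrays (0.24 ± 0.31). In both, Ct1 was the highest and Ct4 the lowest array, and the exposed arrays lay close together between them. Leaving out Ct1 and Ct2 gave 0.78 for Hist1h4k, 0.77 by its second probe, and 0.70 for Hist2h4. Over all arrays, Hist1h4d (0.28 ± 0.26), Hist1h4c (0.37 ± 0.39) and Hist1h4m (0.45 ± 0.66) gave differences close to their errors or below them, as did Hist1h4j (0.31 ± 0.26) and the probe of Hist4h4 that was above background (0.34 ± 0.28). Without Ct1 and Ct2 each of these was at least 2 standard errors above 0, at 0.62 ± 0.22, 0.97 ± 0.27, 1.51 ± 0.54, 0.68 ± 0.20 and 0.76 ± 0.18, and none passed on the adjusted p. The probe of Hist1h4m was well above background on only 2 controls, and read 4.71 on Ct3 and 5.23 on Ct4. Its value of 1.51 is therefore uncertain.

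A second probe of Hist2h4, at the first bases of its transcript, differed from the first. It read 6.19, 5.96, 6.20 and 5.54 on the controls and 7.05, 7.60, 8.37 and 7.17 on the exposed arrays, a difference of 1.57 ± 0.31 with an adjusted p of 0.0855. The groups did not overlap, and without Ct1 and Ct2 the difference was 1.68. It was past the threshold under normexp background correction, without background correction, with the deposited values and after the filter on dim probes, while the first probe of the same gene, whose value stands for the gene here, was past it under none of these. The 3 probes of Hist1h4i disagreed in sign at -0.42 ± 0.39, 0.13 ± 0.23 and -0.12 ± 0.29. With Ct3 and Ct4 as the controls they were -0.45, 0.28 and -0.0082. Hist1h4h was the H4 gene of lowest adjusted p, with each gene read by 1 probe, at 0.34 ± 0.20 (adjusted p = 0.518), and 0.32 without Ct1 and Ct2.

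Over all arrays, the 8 H3 genes had the lowest median of the types, -0.39, with 7 negative and none past the threshold. Without Ct1 and Ct2 this did not hold: 5 of the 8 were positive, the median was 0.22 and H1 had the lowest, 0.08. Hist1h3f read 6.95, 7.06, 6.54 and 7.61 on the controls and 6.30, 5.37, 6.03 and 6.14 on the exposed arrays. No values overlapped, with a difference of -1.08 ± 0.28, an adjusted p of 0.179 and -1.12 without Ct1 and Ct2. Hist1h3c had the exposed arrays lower as well, with 10.33 on the lowest control and 10.29 on the highest exposed array, by a smaller -0.28 ± 0.13 (adjusted p = 0.444), and -0.42 without Ct1 and Ct2. The probes of Hist1h3f and Hist1h3c overlap in sequence, as given above. Hist1h3d, Hist1h3g and Hist2h3b differed by -0.11 ± 0.18, -0.37 ± 0.55 and -0.41 ± 0.70, and turned positive without Ct1 and Ct2, at 0.091, 0.34 and 0.84. The probe of Hist1h3g was well above background on 2 controls and 3 exposed arrays only.

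The stem-loop probes of H3 showed the controls divided. Hist1h3i read 9.72, 8.83, 6.94 and 6.28 on the controls and 7.29, 6.46, 7.01 and 5.33 on the exposed arrays, a difference of -1.42 ± 0.80 that was -0.09 without Ct1 and Ct2. Hist1h3a was well above background on 2 control arrays, with 7.16 on Ct1 and 7.26 on Ct2, and on no exposed array. It read 3.14 on Ct3, 3.46 on Ct4 and 5.27 on S539, so no fold is given (adjusted p = 0.587 in limma). Ct1 and Ct2 are the arrays that stood apart. Hist2h3c2-ps, named as a pseudogene in the array design and as H3c15 in RefSeq, was the H3 member with a positive difference over all arrays. It read 9.12, 8.92, 9.05 and 9.74 on the controls and 9.71, 9.49, 9.77 and 10.06 on the exposed arrays (0.55 ± 0.22, adjusted p = 0.375), and the difference was 0.36 without Ct1 and Ct2.

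Linker histone H1 binds the DNA between nucleosomes. None of its 6 genes passed, 2 differences were positive and the median was -0.20. Hist1h1c had the smallest standard error of the H1 genes, with 12.45, 12.49, 12.53 and 12.99 on the controls and 12.75, 12.82, 12.68 and 12.93 on the exposed arrays (0.18 ± 0.16, and 0.036 without Ct1 and Ct2). Hist1h1b read 11.67, 10.91, 6.86 and 7.36 on the controls and 7.19, 8.32, 6.33 and 7.18 on the exposed arrays. Its difference of -1.94 ± 1.13 was 0.15 without Ct1 and Ct2, the arrays that carried its high values.

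Hist1h1a, with 9.05, 8.04, 6.41 and 8.14 on the controls and 6.53, 6.51, 6.63 and 7.10 on the exposed arrays, gave -1.22 ± 0.51 (adjusted p = 0.393) and kept a negative value of -0.59 without Ct1 and Ct2. Hist1h1e (-0.20 ± 0.25) and the testis linker histone Hist1h1t (-0.20 ± 0.42) differed by less than their errors, and were at 0.12 and -0.024 without Ct1 and Ct2. Hist1h1d, at 0.54 ± 0.73 and 0.74 without them, was well above background on 1 control and 3 exposed arrays.

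**Figure D3:**
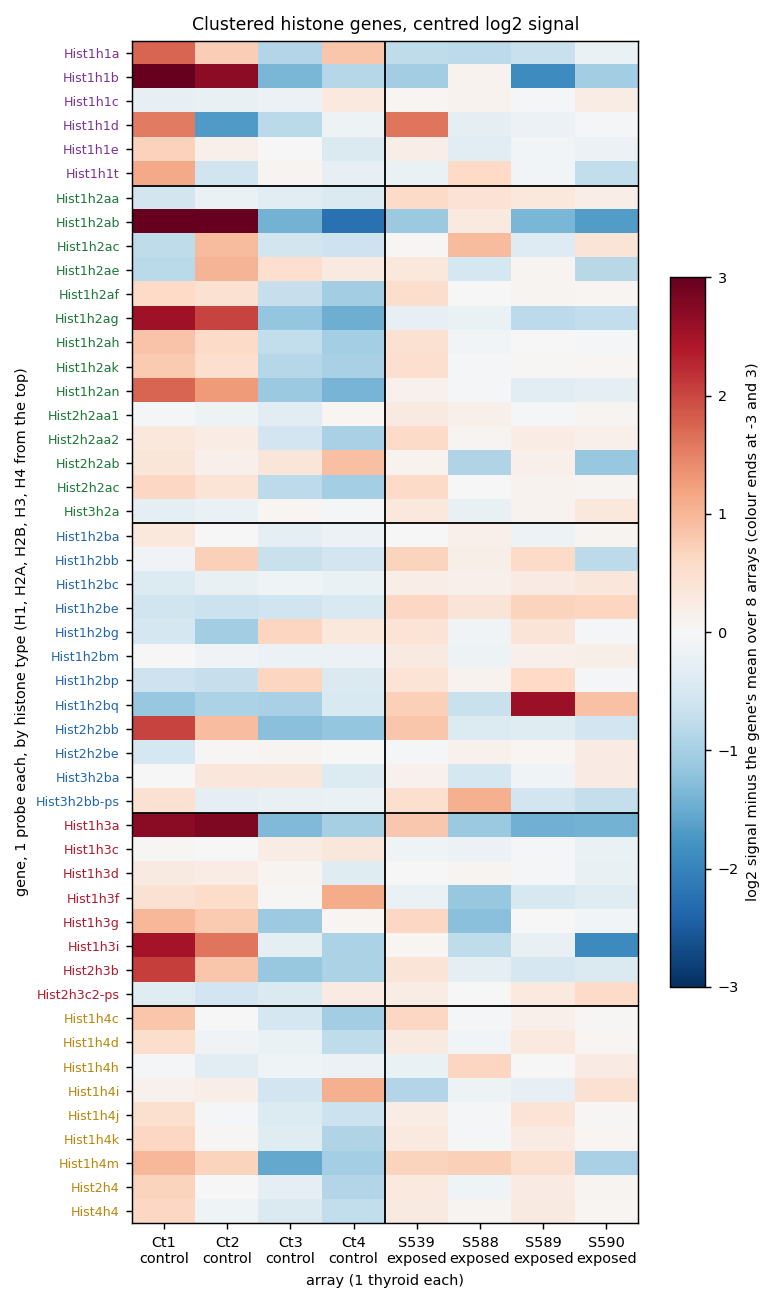
Log2 signal of the 49 genes on each array, centred on each gene's mean over the 8 arrays, with genes in rows by histone type and arrays in columns (red higher, blue lower). Hist1h2be and Hist1h2aa are higher on all 4 exposed arrays, and Hist1h1b, Hist1h2ab, Hist1h2ag, Hist1h3a and Hist1h3i are highest on Ct1 and Ct2.

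Over all members the same arrays stood apart. Both Ct1 and Ct2 exceeded Ct3 and Ct4 in 28 of 55 member probes (50.9%), and in 15.04% of all probes. The SD of the controls was larger than that of the exposed arrays in 45 of 55 members (81.8%), and in 57.67% of all probes. Median SDs over members were 0.62 for controls and 0.25 for exposed arrays, against 0.38 and 0.34 over all probes. By type, both arrays exceeded the other controls in 9 of 15 H2A probes, 8 of 14 H4, 5 of 8 H3, 4 of 12 H2B and 2 of 6 H1.

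Left out of the comparison, a choice made after seeing the data, these arrays changed the members' balance. With Ct3 and Ct4 as the controls, 43 of 55 differences were positive (78.2%, against 48.3% of all probes) and the median was 0.37, against -0.02 over all probes. At an unadjusted p under 0.05, 22 members were higher (40%, against 6.09% of all probes) and 2 lower (3.64%, against 7.24%). Of the 22, 9 were H2A and 9 were H4 probes, and several share sequence as given above, so they are not independent. Ct1 and Ct2 both exceeded the remaining controls in 50.9% of members, against 15.04% of all probes. Leaving them out therefore raises the members' differences in itself, and these counts alone cannot show an effect of exposure. None of the 55 passed the threshold on the adjusted p in limma, against 0.16% of all probes. Medians by type were 0.83 for H2A, 0.69 for H4, 0.28 for H2B, 0.22 for H3 and 0.08 for H1. Of the 12 members whose sign changed, 11 turned from negative to positive and Hist1h2bg the other way.

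A fit that kept all arrays and added the thymocyte score as a covariate gave values between these. Of the members, 42 had positive differences (76.4%, against 48.7% of all probes), the median was 0.32, and 20 were higher and 3 lower at an unadjusted p under 0.05 (36.4% and 5.45%, against 6.58% and 7.8% of all probes). Hist1h2be alone passed on the adjusted p. Mitosis and S phase genes were high on the same arrays as the thymocyte markers, so these fits do not separate them. The thymocyte score was highest on Ct1 and Ct2, so the limits given for the counts without those arrays hold here too.

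**Figure D4:**
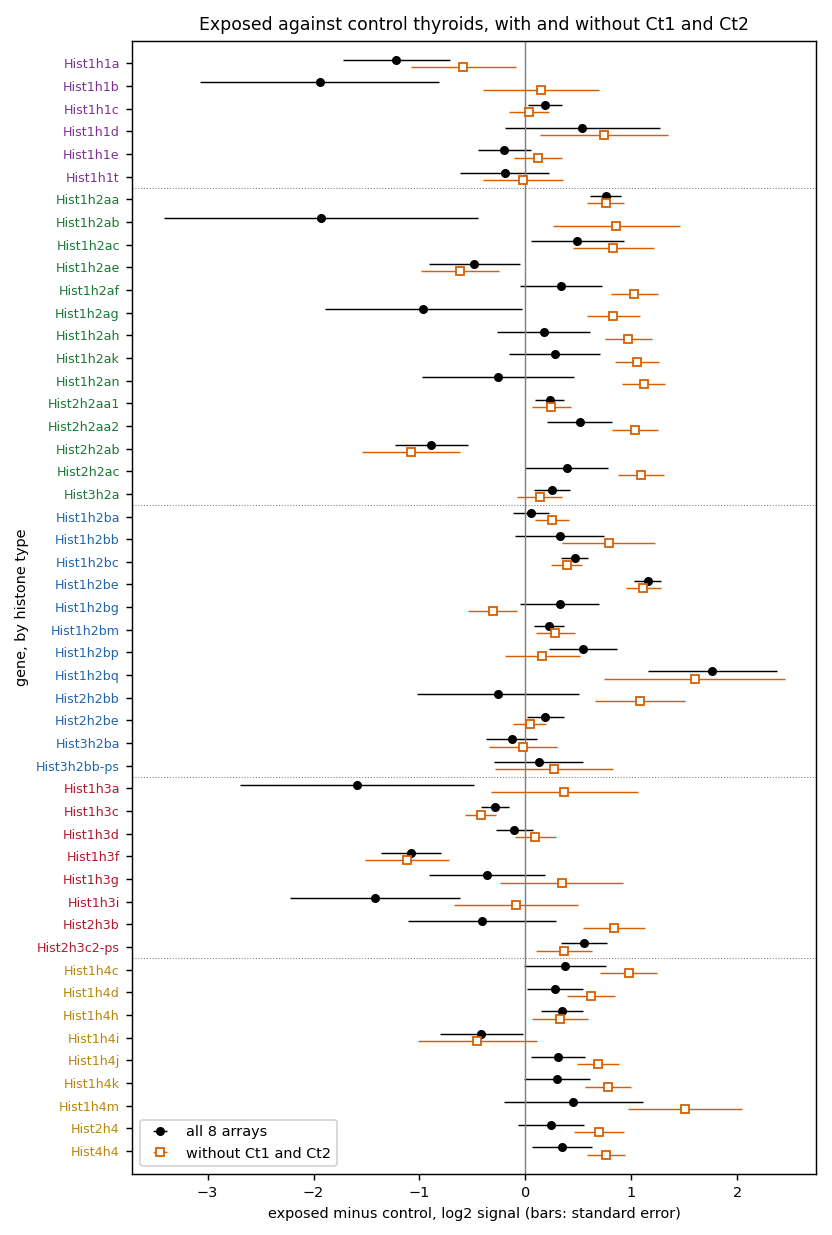
Difference of log2 signal, exposed minus control, for each of the 49 genes with the standard error of the limma fit, over all 8 arrays (black circles) and without Ct1 and Ct2 (open orange squares). Hist1h2be is at 1.15 and 1.11 in these fits, whereas Hist1h2ab moves from -1.93 to 0.86 and Hist1h2ag from -0.97 to 0.83.

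Genes that act on histone mRNA or protein did not move with exposure past the threshold. Of 20 genes listed here for the activation, 3′ processing and decay of histone mRNA, none passed, 7 differences were positive and the median was -0.07. Nearest to passing was Mapk13, with each exposed array above each control (0.91 ± 0.17, adjusted p = 0.0728 in limma). Its difference was 0.98 without Ct1 and Ct2. Mapk13 is a protein kinase gene whose place in this list is not established, so its value is not read as one of histone mRNA processing. Next was Coil, at -0.68 ± 0.20 (adjusted p = 0.224 in limma), and -0.82 without Ct1 and Ct2. Slbp read 7.85, 8.93, 8.91 and 8.82 on the controls and 8.44, 8.04, 8.70 and 8.06 on the exposed arrays, and the groups overlapped (-0.32 ± 0.29, adjusted p = 0.678). Of 22 measured histone chaperones, which carry histones to and from DNA, none passed (median -0.13).

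Many histone variants are made outside S phase, from genes elsewhere in the genome, and none of the 16 measured passed (median -0.25). H2afj, whose probe resembles those of several clustered H2A genes, differed by 0.57 ± 0.28 (adjusted p = 0.456 in limma). Without Ct1 and Ct2 its difference was 1.02. Which of these genes gave the signal they share was not tested. H2afx encodes the H2A variant that is phosphorylated at DNA double-strand breaks. It read 11.84, 11.94, 10.92 and 10.75 on the controls and 10.86, 10.39, 10.72 and 10.03 on the exposed arrays, a difference of -0.87 ± 0.33 with an adjusted p of 0.359, and of -0.34 without Ct1 and Ct2.

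Of 34 S phase and replication genes, 1 passed and 30 had a negative difference (median -0.55), and of 18 mitosis genes none passed and all differences were negative (median -1.56). Without Ct1 and Ct2 these medians were -0.13 and -0.35, and no gene of either list passed. The gene that passed was Cdc6, which loads the replicative helicase onto origins. It read 6.56, 6.66, 6.32 and 6.05 on the controls and 4.38, 3.78, 3.61 and 4.75 on the exposed arrays, where it was well above background on none. The controls were therefore at least 3.38-fold higher (adjusted p = 0.0174), and without Ct1 and Ct2 the adjusted p was 0.146. Its difference, like that of Hist1h2be, was shared by all 4 controls.

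Promoters of the members shared elements that the choice of genes did not use. RefSeq promoters of GRCm38.p6, from 250 bases before to 50 after the start, were found for 43 of the 49 genes (44 promoters), and were searched on both strands. The octamer ATTTGCAT, known as a binding site of Oct1 in H2B promoters, was in 6 of 10 H2B and 7 of 14 H2A promoters, in no promoter of H1, H3 or H4, and in 1.735% of all 32851 promoters. In every H2B promoter with a match it read forward, and in every H2A promoter with a match it read in reverse. The CCAAT box was in every promoter of H1, H2A, H2B and H3 found, in 2 of 8 H4 promoters and in 37.41% of all, and TATAAA in 26 of 44 and in 13.62% of all.

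Some H2A and H2B genes are neighbours that face away from each other, so these counts are not independent: 3 pairs of promoter windows overlapped, among them those of Hist1h2aa and Hist1h2ba. Windows of 30 bases are shown for Hist1h2be, which passed the threshold, for this testis pair and for Hist1h2ab, which varied most between controls. Capitals mark the octamer, and each is read along its own gene.
Hist1h2be: agtaagacttaATTTGCATaagactgccta
Hist1h2ba: gaattccccttATTTGCATgcacccagcac
Hist1h2aa: gtgctgggtgcATGCAAATaaggggaattc
Hist1h2ab: tgcaggcctttATGCAAATgaggagctcaa

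In GRCm38.p6 the window of Hist1h2be lies at chr13:23586019-23586048 on the minus strand, in 1 of the 2 promoters listed for the gene, with the octamer beginning 67 bases before the start. The other promoter of Hist1h2be had no match. Which of these promoters starts the transcript that the Hist1h2be probe reads was not tested. Hist1h2ba and Hist1h2aa share the window chr13:23934302-23934331, read on the minus and the plus strand, and that of Hist1h2ab is chr13:23750948-23750977 on the plus strand. Between exposed and control thyroids, Hist1h2aa and Hist1h2ab differed by 0.76 and -1.93 over all arrays, and by 0.76 and 0.86 without Ct1 and Ct2.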

How the data were processed

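Thyroid RNA of 4 control and 4 exposed mice was measured on 8 single-colour Agilent arrays. Deposited files were, for each array, the output of Feature Extraction 10.7.3.1, holding raw and background-subtracted spot intensity, and 1 table of log2 values that the authors made with limma. Per the study's methods, slides were quantile-normalized and the adjusted p was held to 0.05. The deposited log2 values were those of the quantile-normalized median spot signal within 0.0378 (median absolute difference 0.0113).

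Here the background-subtracted intensity of 59305 spots (control spots left out) was put on the log2 scale and quantile-normalized, and spots sharing a probe were averaged. Groups were compared with lmFit and eBayes (limma 3.58.1, R 4.3.3) and Benjamini-Hochberg adjustment over 55681 probes, with no covariate. A gene with several probes was read by the probe of highest mean signal. Where no array of a group had a probe above background, a bound replaced the fold: the mean of the brighter group against that of the dim group, with each dim array taken at the higher of its own signal and the lowest signal well above background. A bound is printed only where every array of the brighter group was well above background. Members were matched to RefSeq (GRCm38.p6) for names, 52 probes by accession and 3 by an older symbol. Probe positions are those of the files, in mm9; that of Hist1h2ag spans more than the probe and is not given.

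The genes, the gene lists and the tests were chosen with earlier results of these data known. The rule for naming genes took every gene past the threshold, the 3 of highest signal, the 2 largest rises and 2 largest falls and the gene nearest the threshold in each type, and all H1 genes. Lists covered histone mRNA processing (20 genes), histone variants (17 listed), chaperones (23 listed), S phase (34), mitosis (18), a check of the exposure (6) and markers of 12 cell types. No gene passed in the lists of thyrocytes, thymocytes, T cells, B cells, macrophages, erythroid cells, endothelium, fibroblasts, C cells, parathyroid, skeletal muscle or adipocytes. In the check of the exposure, 4 genes passed as higher (Cdkn1a, Mdm2, Bax and Phlda3) and 1 as lower (Slc5a5). Exact permutation tests were two-sided over the 70 assignments of 4 and 4 arrays. The number of arrays limits the precision.

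Alternatives were 75th percentile scaling, normexp background correction (offset 50), the deposited values, no background correction, a filter on dim probes and an intensity trend. Others were array weights, spots with outlier marks left out, Student's t-test, counting genes in place of probes, other probe choices and leaving out each array. The study names Student's t-test for dual comparisons in general, and a B-test for its arrays. Leaving out Ct1 and Ct2 together and the thymocyte score as a covariate were added after seeing the data.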

Additional observations from a re-analysis of the deposited data

Results flagged for a closer look

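In groups of 4 arrays, the values of the named genes above background and of the histone type scores were examined for an array far from the other 3, and 5 of 72 groups had one, where chance alone gives about 1 in 20. Hist1h1c read 12.99 on Ct4, above the other controls. Among the exposed arrays, Hist1h2af read 16.67 on S539 and Hist2h2bb 10.49 on S539, above the others, Hist1h2be read 9.79 on S588, below them, and Hist1h4m read 5.29 on S590, below them. Without S588 the difference of Hist1h2be was 1.22, with an adjusted p of 0.0251.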

How the results depend on the processing

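Of the 55 histone probes, 1 was past the threshold as higher over all arrays, 3 with normexp background correction, 4 without background correction, 4 with the deposited values, 3 after the filter on dim probes and 0 without Ct1 and Ct2. In the same order, 327, 586, 648, 645, 509 and 59 of all probes passed as higher. These are of 55681 probes, or of 36135 after the filter, which kept 46 members. The settings with more members called thus also called more of all probes. Leaving out 1 array gave 0 to 1, against 85 to 315 of all probes. Student's t-test, run here on each probe, gave 1 higher and 0 lower after adjustment, against 229 and 60 of all probes. At an unadjusted p it gave 6 and 3, with no count over all probes to set beside them. No alternative put a member past the threshold on the adjusted p as lower. The probes added were those of Hist1h2aa, Hist2h4 and, in 2 of these settings, Hist1h2bq. The median difference of the members, 0.19, lay between 0.06 and 0.28 with 1 array left out, was 0.22 after scaling to the 75th percentile, where the median over all probes was 0.16, and stayed positive in every setting run. By sign, 1 of 278 values of the 31 named genes turned under the other planned settings, Hist1h1t without outlier spots (0.15). With 1 array left out, 10 of 248 turned, over ranges of -0.38 to 0.0003 for Hist1h1e, -0.43 to 0.15 for Hist1h1t, -0.14 to 0.49 for Hist1h2ah, -0.026 to 0.17 for Hist1h2ba, -0.72 to 0.37 for Hist2h2bb, -0.014 to 0.50 for Hist2h4 and -0.29 to 0.023 for Hist3h2ba. Without Ct1 and Ct2, Hist1h1b (0.15), Hist1h1e (0.12), Hist1h2ab (0.86), Hist1h2ag (0.83), Hist1h3d (0.091) and Hist2h2bb (1.08) turned positive; with the thymocyte score as a covariate, Hist1h1e (0.079), Hist1h1t (0.017), Hist1h2ab (0.17), Hist1h2ag (0.40), Hist1h3d (0.047) and Hist2h2bb (0.84) did. None of these was past the threshold in either fit, and the cause was not tested. No paired analysis was possible because the columns carry no shared replicate numbers. The number of arrays limits what could be called: the standard error of a member's difference had a median of 0.32 and reached 1.48.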
